A study of Caenorhabditis elegans with 6 samples.

Results

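The X chromosome peaks outside promoters are the places on the C. elegans X chromosome where ELT-3 gave a strong chromatin immunoprecipitation sequencing (ChIP-seq) peak away from the start of any protein-coding gene. They numbered 384 of the 3141 strongest peaks of the pooled list. The peaks were chosen by their signal value and place: the rule took the 3141 strongest of 14525 pooled peaks by the strength the authors' peak caller gave, which is 3 times the 1047 peaks of the authors' final list, called optimal here. It kept summits on X that lay outside 1000 bp upstream to 200 bp downstream of every protein-coding 5′ end and more than 200 bp from any tRNA, snoRNA or snRNA gene. Of the 720 X peaks taken, 278 lay in promoters and a further 58 in the zones of small RNA genes. The same rule on the 5 autosomes gave 1190 of 2421 peaks, which serve as the comparison set.

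The animals were whole L3 larvae of strain OP75, genotype unc-119(ed3) III; wgIs75, with the sexes pooled, and the transgene supplies ELT-3 with a C-terminal GFP-FLAG tag. All 6 libraries formed 1 group, from 4 biological replicates numbered 1, 2, 4 and 5, and replicate 2 was sequenced as 3 technical libraries that share 1 peak list. There was no second genotype, stage or condition, and the labels do not say whether the replicates were separate cultures, so the spread between replicates may be technical. Whole animals hold every tissue, so a peak cannot be assigned to a cell type. Replicates 1 and 2 stood apart from replicates 4 and 5: their 3141 strongest peaks matched 26.6% and 27.9% of the pooled peaks taken within 100 bp, against 54.5% and 47.7% for replicates 4 and 5.

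ELT-3 belongs to the GATA family of zinc finger factors and acts in the worm epidermis, the tissue that builds the cuticle, and GATA factors bind short sequences around the letters GATA. Sites away from promoters, in introns or between genes, can be enhancers. The X chromosome of C. elegans also carries sites that recruit the dosage compensation complex, a condensin-like complex that lowers X expression in XX animals, and a motif enriched on X, with the core CGCAGGG, is known from such sites. The strongest X peaks outside promoters often held that core, and their windows are shown first.

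The summit with 50 bases on either side is given for the strongest intron, exon and intergenic peak with and without a GATA site and for the strongest peak near elt-3, on the plus strand of ce11. Capitals mark a GATA site, which is GATA with A or T before it and A or G after it, or CGCAGGG, each on either strand, so that CCCTGCG marks the second motif and TTATCA the first on the minus strand. The sequences are from the RefSeq WBcel235 assembly, which is ce11.
W02H3.3, intergenic, chrX:11094188-11094288: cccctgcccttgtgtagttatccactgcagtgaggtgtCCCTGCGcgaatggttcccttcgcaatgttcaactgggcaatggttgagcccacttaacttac
pks-1, exon, chrX:5429499-5429599: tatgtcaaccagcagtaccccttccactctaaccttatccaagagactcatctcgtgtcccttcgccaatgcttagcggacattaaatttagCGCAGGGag
mom-1, intron, chrX:6296472-6296572: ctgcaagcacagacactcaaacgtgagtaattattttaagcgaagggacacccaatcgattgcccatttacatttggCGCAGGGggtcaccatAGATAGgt
Y41G9A.17, intron, chrX:2997045-2997145: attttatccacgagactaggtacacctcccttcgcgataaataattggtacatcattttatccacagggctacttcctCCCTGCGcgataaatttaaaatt
ZK899.6, intergenic, chrX:9465774-9465874: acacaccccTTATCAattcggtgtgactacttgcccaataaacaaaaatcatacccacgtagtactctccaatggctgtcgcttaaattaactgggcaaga
ccd-5, exon, chrX:2567873-2567973: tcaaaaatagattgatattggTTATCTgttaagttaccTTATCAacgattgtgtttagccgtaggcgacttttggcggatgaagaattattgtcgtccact
elt-3, exon, chrX:13940445-13940545: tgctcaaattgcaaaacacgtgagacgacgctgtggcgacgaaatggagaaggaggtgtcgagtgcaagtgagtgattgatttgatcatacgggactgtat

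The signal values of the 384 peaks ran from 26.2 to 193 with a median of 34.1, and those of the autosomal set from 26.2 to 234 with a median of 33.0. These values chose the peaks and are given as a description, as are the numbers per chromosome. The 5 weakest peaks inside the limit had signal values of 26.197 to 26.259, and the 5 X peaks outside promoters just below it had 26.0623 to 26.1326. The optimal list held 123 of the 384 X peaks (32.0%) and 358 of the 1190 autosomal peaks (30.1%), against 33.3% of all peaks taken. A deposited q-value of 0.05 or less was reached by 213 X peaks (55.5%) and 617 autosomal peaks (51.8%), so the weaker peaks of both sets include regions the caller did not place below that level. X held 27.95 such peaks per Mb of sequence where one could lie. The autosomes together held 19.85, from 15.8 on chromosome V to 24.7 on chromosome II.

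The strongest X peak outside promoters ranked 5 in the pooled list and lay 2714 bp from W02H3.3, between convergent genes. Its signal value was 51.4, 29.1, 83.2 and 44.2 in replicates 1, 2, 4 and 5, where it ranked 3, 16, 3 and 7. The next, 572 bp from F55G7.5, ranked 23, 15, 14 and 4 in the same order of replicates. Both were among the strongest peaks of every replicate. The peak nearest to adm-2, a gene for an ADAM family metalloprotease, lay 5087 bp from it and ranked 20, 37, 16 and 3. The peak in a coding exon of pks-1, a polyketide synthase gene, ranked 22, 14, 10 and 22, and lay 15199 bp from the nearest 5′ end, the longest such distance of the 384. The peak in an intron of mom-1, which encodes the Porcupine homologue needed for Wnt secretion, ranked 174, 33, 4 and 14, so that replicate 1 was the lowest. The peak 1301 bp from hpk-1, a homeodomain-interacting protein kinase gene, ranked 35, 399, 18 and 23, and replicate 2 was the lowest.

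The other peaks of the strongest 15 lay at ZK899.6, F19H6.6, Y41G9A.17, fbxb-58, R03E9.2, T27A8.7, svh-5, asns-2 and acly-1. Replicates differed most at acly-1, the ATP citrate lyase gene, whose peak 1439 bp upstream ranked 2996, 212, 42 and 18 in replicates 1, 2, 4 and 5. The peak at R03E9.2 ranked 742, 72, 34 and 16 and held 4 GATA sites, the most in any window and a number that 2 windows held. The intron peak of asns-2, an asparagine synthetase gene, ranked 504, 354, 56 and 6 and held 2. Further down, the fifth strongest intron peak lay in F45E1.4, with a pooled rank of 81, and the strongest exon peaks after pks-1 lay in elt-3, ZK470.2, hex-5 and Y41G9A.5, with pooled ranks of 151, 328, 351 and 416. All 15 of the strongest were matched within 100 bp in all 4 replicates' strongest peaks. Over the 384 peaks, 106, 124, 193 and 173 were matched in replicates 1, 2, 4 and 5, which is 38.8% ± 10.6 (SD, n = 4), against 37.1% ± 12.02 of the autosomal set. All 4 replicates matched 31 peaks (8.07%), against 4.45% of the autosomal set and 5.41% of all peaks taken, and 66 peaks were matched in none. The replicates' reads are part of the pooled list, so these matches are not independent of how the peaks were chosen and were not tested.

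By position, 201 of the 384 summits were intergenic, 124 lay in introns and 59 in exons of protein-coding genes. Intergenic summits made up 52.3% (Wilson 95% confidence interval 47.3 to 57.3), while 41.1% of the X bases where a summit could lie are intergenic, a ratio of 1.27 (two-sided exact binomial test, p = 1.48e-05, adjusted after Benjamini and Hochberg over the 3 classes). Exon summits made up 15.4% (12.1 to 19.3), against 25.8% of the bases, a ratio of 0.597 (adjusted p = 3.38e-06, same exact test). Intron summits made up 32.3% (27.8 to 37.1), against 33.1% of the bases, a ratio of 0.975 (adjusted p = 0.786, same exact test). The intervals cover counting error only.

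The shares of intergenic and exon summits differed between the replicates' own lists. With the same number of strongest peaks from 1 replicate, the exon ratio was 1.06, 1.16, 0.680 and 0.612 in replicates 1, 2, 4 and 5, and the intergenic ratio was 1.02, 1.02, 1.21 and 1.32. Neither class differed from the bases in replicates 1 and 2 taken alone (adjusted p from 0.0904 to 0.801, exact binomial test). With 6 times as many peaks as the optimal list, the exon ratio was 0.938 (adjusted p = 0.313, exact binomial test). Among the 33 to 51 pooled X peaks matched in 3 replicates, with the remaining one left out of the matching in turn, the exon ratio was 0.305 to 0.353 (adjusted p from 0.00370 to 0.0414, exact binomial test). The intergenic ratio was 1.53 to 1.60 (adjusted p from 0.00345 to 0.0365, same exact test). The pooled list still held the reads of the replicate left out, and the 31 peaks matched in all 4 replicates were in each of these sets. The sets therefore cannot show whether the calls hold without a replicate.

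**Figure D1:**
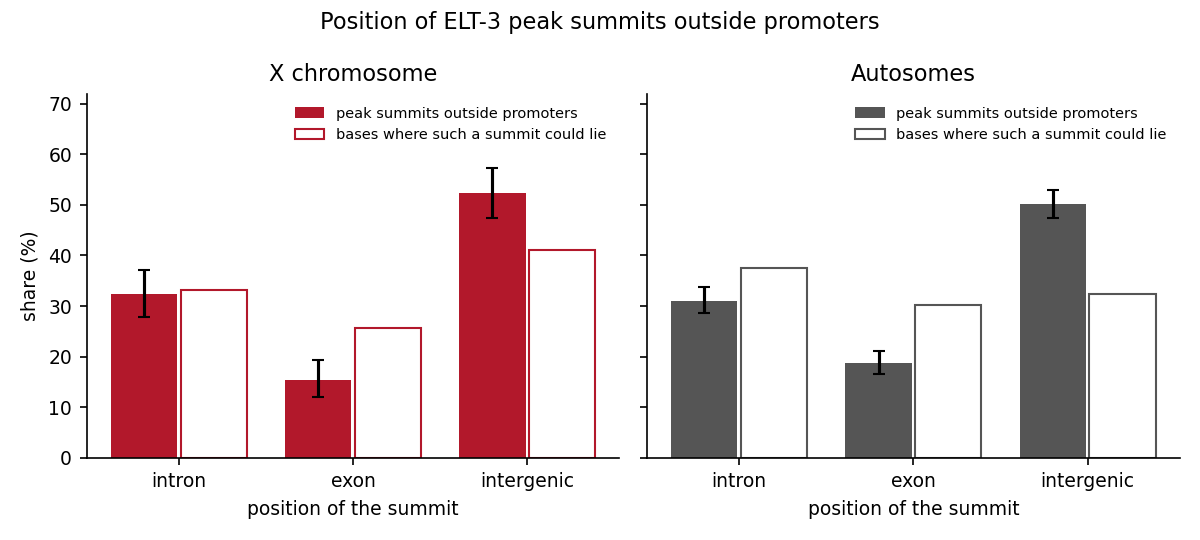
Share of peak summits outside promoters (filled bars, with Wilson 95% confidence intervals) and of the bases where such a summit could lie (open bars) by position, for the X chromosome (left, 384 peaks) and the autosomes (right, 1190 peaks). On X, 52.3% of summits were intergenic against 41.1% of the bases, and 15.4% were in exons against 25.8%.

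The X set and the autosomal set did not differ in these shares beyond counting error. Intergenic summits were 52.3% on X and 50.2% on autosomes, a difference of 2.18 percentage points (Newcombe 95% interval -3.57 to 7.88; Fisher's exact test, two-sided, adjusted p = 0.659). Exon summits were 15.4% on X and 18.7% on autosomes, a difference of -3.37 points (-7.38 to 1.10; Fisher's exact test, adjusted p = 0.438). Intron summits were 32.3% on X and 31.1% on autosomes, a difference of 1.20 points (-4.03 to 6.67; Fisher's exact test, adjusted p = 0.659). The sequence they could fall in differs, since 41.1% of such X bases and 32.4% of such autosomal bases are intergenic, so the ratio of summits to bases in intergenic sequence was 1.27 on X and 1.55 on autosomes. The intergenic share was higher on X with 6 times as many peaks as the optimal list (7.62 points, adjusted p = 3.72e-04) and in replicates 1 and 2 alone (9.43 and 11.2 points), by Fisher's exact test.

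Within introns, 58 of 124 summits (46.8%, 38.2 to 55.5) lay in a first intron, against 32.0% of the intron bases where a summit could lie. Introns of at least 1000 bp held 75 (60.5%), against 43.3% of those bases. Of the 59 exon summits, 42 lay in coding sequence (71.2%), against 83.9% of the exon bases. Of the 201 intergenic summits, 58 lay between divergent genes (28.9%), 107 between genes in tandem (53.2%) and 36 between convergent genes (17.9%), against 33.5%, 53.2% and 12.6% of the intergenic bases. Annotated ncRNA genes held 20 intergenic summits (9.95%), against 2.73% of the bases. These features were described and not tested. The median distance from a summit to the nearest protein-coding 5′ end was 2088 bp, and it was 1636 bp for intron, 1610 bp for exon and 2653 bp for intergenic summits. Intergenic peaks had the highest median signal value, 35.9, against 34.7 for intron and 29.1 for exon peaks, and 76 of them (37.8%) were in the optimal list, against 37 intron peaks (29.8%) and 10 exon peaks (16.9%).

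A GATA site lay within 50 bp of 141 of the 384 summits (36.7%, 32.1 to 41.6), against 35.1% of all peaks taken. In the window of the same size 350 bp to the left the share was 20.1%, and 111 peaks had a site only at the summit against 47 only in the flank (exact McNemar test, two-sided, p = 1.51e-06, adjusted over 4 motifs). Windows of the same size tiled over the sequence outside promoters held a site in 21.0% of cases on X and 19.002% on autosomes. The count of sites peaked at the summit, with 12.5 sites per 100 X peaks in the 20 bp right of it. Multiple sites were uncommon: 100 windows held 1 site, 30 held 2, 9 held 3 and 2 held 4. Base composition moved with the summit as well, since summit windows averaged 41.7% ± 7.61 GC and the flanks 34.3% ± 8.41 (SD, n = 384 peaks), and the part of GC content in the motif shares was not tested. Among the 33 to 51 X peaks matched in 3 replicates, the summit held a site more often than the flank by 33.3 points without replicate 5 (adjusted p = 0.0384), and by 19.6 to 20.8 points, not called, without replicate 1, 2 or 4 (adjusted p from 0.0828 to 0.334, exact McNemar test).

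**Figure D2:**
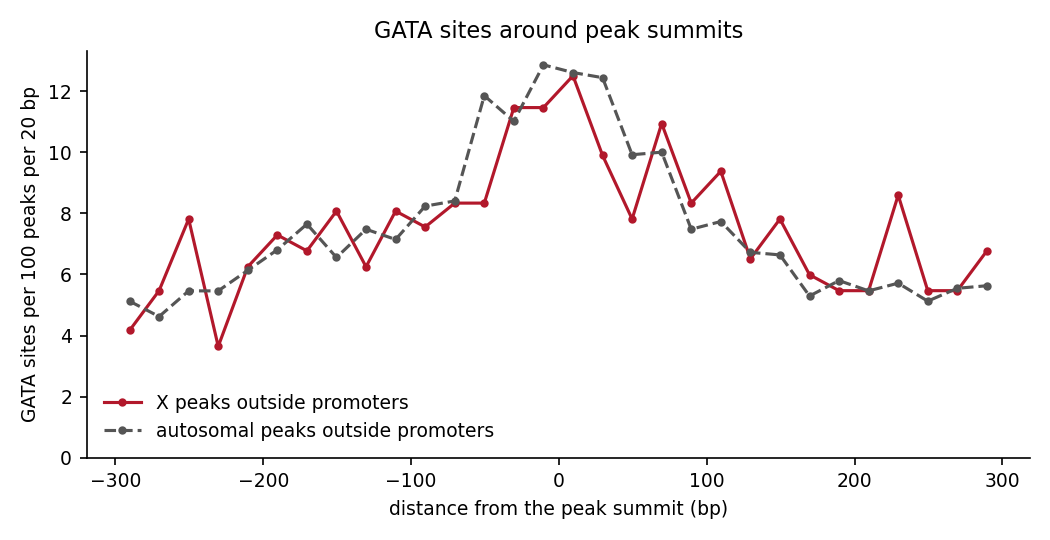
GATA sites per 100 peaks in 20 bp steps (vertical axis) by distance from the summit in bp (horizontal axis), for X peaks outside promoters (solid line, 384 peaks) and autosomal peaks outside promoters (dashed line, 1190 peaks). Both lines are highest near the summit, with 12.5 sites on X and 12.6 on autosomes in the first 20 bp to its right.

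The share of X summits with a GATA site did not differ between introns, exons and intergenic sequence beyond counting error. It was 41.9% of 124 intron, 32.2% of 59 exon and 34.8% of 201 intergenic summits. The difference between intron and intergenic peaks was 7.11 points (Newcombe 95% interval -3.64 to 17.9; Fisher's exact test, adjusted p = 0.384), and that between intron and exon peaks was 9.73 points (-5.44 to 23.4; adjusted p = 0.384). Replicate 2 alone gave a larger share in introns than in intergenic sequence (13.7 points, adjusted p = 0.0263, Fisher's exact test).

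The share of summits with a GATA site was 36.7% on X and 38.7% on autosomes, a difference of -1.94 points (Newcombe 95% interval -7.38 to 3.70; two-sided Fisher's exact test over 4 motifs, adjusted p = 0.507). Its direction depended on the list: the difference was 5.55, 4.97, 0.344 and -3.19 points in replicates 1, 2, 4 and 5 alone, with an adjusted p of 0.0419 in replicate 1 (Fisher's exact test). Among the strongest peaks, those as many as the optimal list, it was 39.02% of 123 on X and 50.6% of 358 on autosomes (adjusted p = 0.0284, Fisher's exact test). The single form TGATAA was less frequent at X summits outside promoters than at autosomal ones. It was at 69 of 384 X summits (17.97%) and 297 of 1190 autosomal summits (24.96%, Fisher's exact test, adjusted p = 0.00588), against 21.2% of all peaks taken. TGATAA was compared in the pooled list only, not in each replicate. The other X peaks taken, those in promoters or near small RNA genes, held it at 19.6%, and the other autosomal peaks taken at 18.9%. Tiled windows outside promoters held it in 9.75% of cases on X and 8.91% on autosomes. By class, a split chosen after the data were seen, TGATAA was at 15.9% of 201 intergenic X summits and 29.1% of 597 intergenic autosomal summits (adjusted p = 5.40e-04 in Fisher's exact test, adjusted across 3 classes). In introns it was at 20.2% of X and 23.5% of autosomal summits and in exons at 20.3% of X and 16.1% of autosomal summits (adjusted p = 0.461 for both, Fisher's exact test).

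CGCAGGG, the core letters of the motif enriched on X, lay within 50 bp of 13 of 384 X summits (3.39%, 1.99 to 5.71) and of 6 of 1190 autosomal summits (0.504%, 0.231 to 1.10), against 1.05% of all peaks taken. This is an odds ratio of 6.91 (adjusted p = 1.13e-04, two-sided Fisher's exact test). The 4 motifs searched were chosen with earlier results of these data known, so their p-values are not those of motifs fixed beforehand. In the flank 350 bp to the left it was at 1 of the 384 X peaks (0.260%; exact McNemar test, adjusted p = 0.00244). The letters themselves are not more frequent on X: tiled windows outside promoters held them in 0.149% of cases on X and 0.145% on autosomes. Among the other 336 X peaks taken, those in promoters or near small RNA genes, 7 held them (2.08%). The lists of the 4 replicates gave 14, 9, 12 and 12 X peaks, against 1, 6, 7 and 6 autosomal peaks, in replicates 1, 2, 4 and 5, and the share was higher on X in 4 of 4 replicates (adjusted p from 1.38e-08 to 0.00368, Fisher's exact test within each list). Of the 13 pooled carriers, 9, 11, 12 and 11 were matched among the strongest peaks of these replicates in the same order. The 4 lists thus largely count the same sites and are not separate tests of the sequence difference. The call held in the alternatives that changed the promoter window, the number of peaks, the thinning of neighbours or the motif window. Among the 33 to 51 X peaks matched in 3 replicates the difference was larger, at 17.6 to 27.3 points, both from autosomes (adjusted p from 7.39e-05 to 1.23e-04, Fisher's exact test) and from the flank (adjusted p from 0.00781 to 0.0156, exact McNemar test). All 4 replicates matched 9 of the 13 X peaks with the motif and 22 of the other 371, so the matching itself raised the share. The same 9 peaks were in each of these sets, which are therefore not separate tests.

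**Figure D3:**
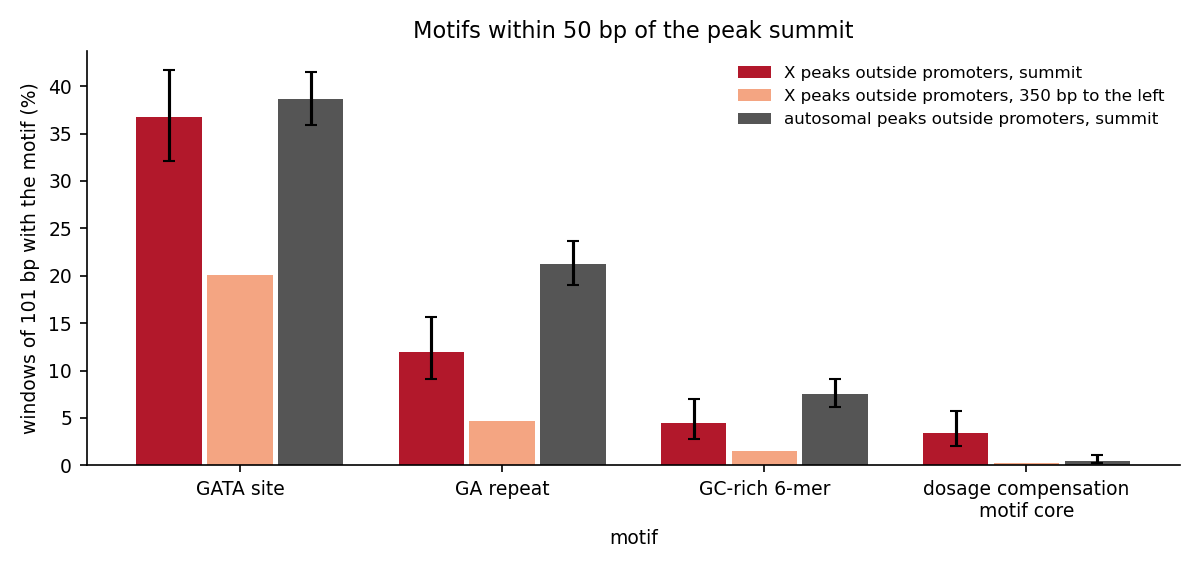
Share of windows, 50 bp on either side of the centre, with each of 4 motifs (vertical axis, %), for X summits outside promoters, the flank 350 bp left of them and autosomal summits outside promoters, with Wilson 95% confidence intervals for the summits. The GATA site is GATA with A or T before and A or G after, the GA repeat is GAGAGA, the GC-rich 6-mer is ACGCAG and the dosage compensation motif core is CGCAGGG, which was at 3.39% of X and 0.504% of autosomal summits.

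The 13 peaks with CGCAGGG were mostly strong ones. Their signal values had a median of 115.5, against 33.8 for the other 371, and 11 of the 13 were in the optimal list. They were at 11 of the 123 X peaks of the optimal list (8.94%, 5.07 to 15.3) and at 2 of the 261 weaker X peaks (0.766%). Of the 20 strongest peaks of the whole list, 9 were X peaks outside promoters and 6 of these held CGCAGGG, while 1 of the other 11 did. By position, 9 of the 13 were intergenic, 3 in introns and 1 in an exon. The difference from autosomes passed the test in intergenic sequence (9 of 201 X summits and 2 of 597 autosomal summits, Fisher's exact test, adjusted p = 3.58e-04, a split chosen after the data were seen). In introns it was 3 of 124 on X and 4 of 370 on autosomes (adjusted p = 0.375, Fisher's exact test), and in exons 1 of 59 on X and 0 of 223 on autosomes. A GATA site was also within 50 bp of 3 of the 13, those at mom-1, dlg-1 and T26C11.2.

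The 13 peaks held 14 matches of CGCAGGG, and the letter before it was G in 12 of them, with CG before it in 8 and TCG in 7. The matches not already shown are given with 10 bases on either side, on the strand that reads CGCAGGG, with the core in capitals; they were chosen after their values were seen, to show the letters around the core.
F55G7.5, intergenic, chrX:11937532-11937558, plus strand: gaggtacaaaCGCAGGGaagagaatta
hpk-1, intergenic, chrX:4209256-4209282, minus strand: gccgctatcgCGCAGGGacacctcttt
F25E2.2, intergenic, chrX:806665-806691, plus strand: gcgattatcgCGCAGGGgtgtttgttg
lgc-40, intergenic, chrX:2364889-2364915, minus strand: aataattaagCGCAGGGatatatagta
C34D10.1, intergenic, chrX:8036391-8036417, minus strand: ttttttatcgCGCAGGGacgtatgtcg
C34D10.1, intergenic, chrX:8036426-8036452, plus strand: ttttccatcgCGCAGGGaacccttcga
F20B6.9, intergenic, chrX:4208730-4208756, plus strand: agtctcattgCGCAGGGacaccctttc
cdk-4, intergenic, chrX:13514549-13514575, plus strand: acctttatcgCGCAGGGatattgaaat
dlg-1, intron, chrX:5480481-5480507, plus strand: tgcgcatcctCGCAGGGtgactcatcg
T26C11.2, intergenic, chrX:1837883-1837909, plus strand: cactcggccgCGCAGGGcacggaaatg

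With the preceding G required, 11 of 384 X summits and 0 of 1190 autosomal summits held GCGCAGGG. A count of 0 allows up to 0.252%. That G was chosen after the data were seen, from the matches at these same X peaks. The 11 are among the 13 carriers already counted, so they add no separate support. How often GCGCAGGG lies in tiled windows was not counted. With CGCAGGG or CGAAGGG counted, the numbers were 16 of 384 X summits and 10 of 1190 autosomal summits. The adjusted p was 2.14e-04 (Fisher's exact test, multiplied by the 4 motifs, letters also chosen after the data were seen). The peak near C34D10.1 held 2 matches on opposite strands, and its nearest 5′ end, 4868 bp away, was that of xol-1, the switch gene of sex determination. It ranked 57 and 39 in replicates 4 and 5 and was in neither the list of replicate 1 nor that of replicate 2 within 100 bp. The peaks near hpk-1 and F20B6.9 lay close together in the same gap between genes, and leaving the weaker one out by keeping 1 summit per 2 kb left 12 carriers of 322 X peaks, against 6 of 1012 autosomal peaks (adjusted p = 2.88e-04, Fisher's exact test). The carrier near cdk-4, a cell cycle kinase gene, was matched in all 4 replicates, and that in dlg-1, which encodes the Discs large protein of epithelial junctions, in 1. Of the 13 carriers, 9, 11, 12 and 11 were among the strongest peaks of replicates 1, 2, 4 and 5.

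GAGAGA, a GA repeat, was less frequent at X summits outside promoters than at autosomal ones. It lay at 46 of 384 X summits (11.98%, 9.10 to 15.6) and 253 of 1190 autosomal summits (21.3%, 19.03 to 23.7), a difference of -9.28 points (Fisher's exact test, adjusted p = 1.13e-04), against 18.7% of all peaks taken. By class, a split chosen after the data were seen, only intergenic peaks passed (13.9% on X, 26.8% on autosomes, Fisher's exact test, adjusted p = 4.92e-04). Intron and exon peaks did not (adjusted p = 0.0715 and 0.539, Fisher's exact test). Among the other X peaks taken 65 of 336 held it (19.3%), and among the other autosomal peaks taken 223 of 1231 (18.1%). GAGAGA was more frequent at X summits than in their flanks, where the share was 4.69% (exact McNemar test, adjusted p = 4.69e-04). That difference was not called in replicates 1 and 2 alone (1.41 and 2.48 points) or among as many peaks as the optimal list (6.50 points), nor among the peaks matched in 3 replicates with any 1 left out (0 to 9.80 points, adjusted p from 0.167 to 1). The difference from autosomes was -1.33, -0.282, -5.66 and -7.50 points in replicates 1, 2, 4 and 5 alone, and it passed the test in replicates 4 and 5 and not in replicates 1 and 2 (adjusted p = 0.498 and 0.920, Fisher's exact test). Among the peaks matched in 3 replicates it was -24.1 to -16.7 points, called without replicate 1, 2 or 4 (adjusted p from 0.00966 to 0.0355) and not without replicate 5 (-17.5 points, adjusted p = 0.0994, Fisher's exact test). ACGCAG, a GC-rich 6-mer, lay at 17 X summits (4.43%) and 89 autosomal summits (7.48%; Fisher's exact test, adjusted p = 0.0610), against 8.66% of all peaks taken. The lower share on X was called in replicates 4 and 5 alone (-4.10 and -3.27 points, adjusted p = 0.00510 and 0.0342, Fisher's exact test) and among as many peaks as the optimal list (-7.39 points, adjusted p = 0.0261). In replicates 1 and 2 alone the difference was 0.546 and -1.14 points (adjusted p = 0.498 and 0.532, Fisher's exact test).

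**Figure D4:**
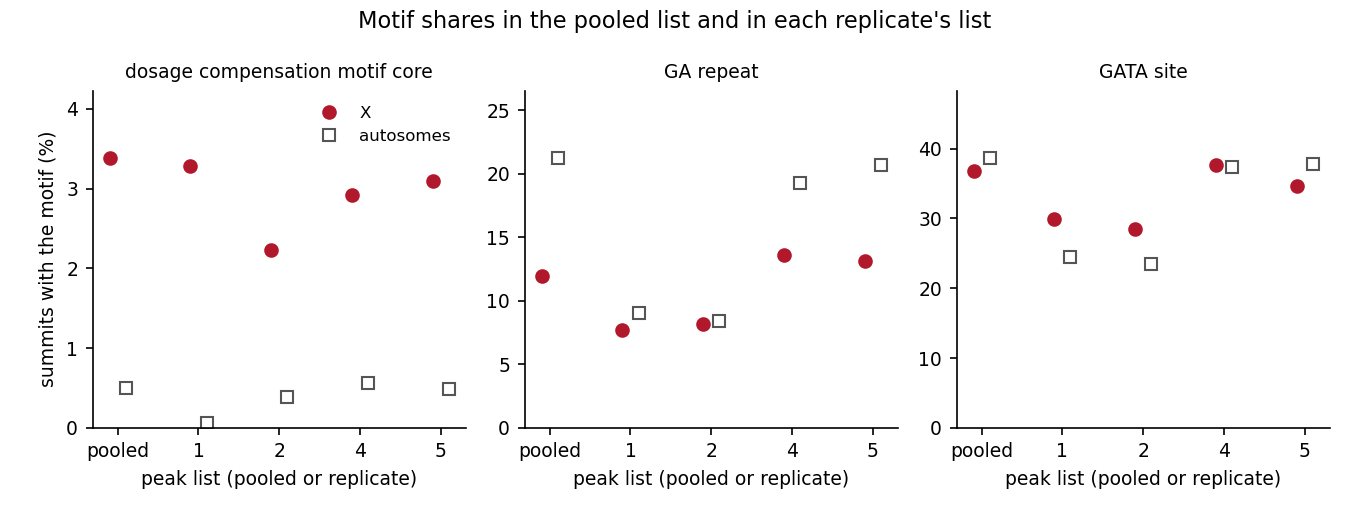
Share of summits outside promoters (vertical axis, %) with CGCAGGG (left), GAGAGA (middle) and a GATA site (right), for X (filled circles) and autosomes (open squares), in the pooled list and in the lists of replicates 1, 2, 4 and 5. CGCAGGG was at 2.23% to 3.28% of X summits and 0.0625% to 0.565% of autosomal summits in the 4 replicates, while the order of X and autosomes for the GATA site varied.

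Along the chromosome, cut into 3 stretches of equal length, the left stretch of X, from base 1 to 5906314, held 94 of the 384 peaks (24.5%, 20.4 to 29.0), against 33.8% of the bases where a summit could lie (ratio 0.724, two-sided exact binomial test, adjusted p = 2.39e-04 over the 3 stretches). The right stretch, from base 11812629 to 17718942, held 159 (41.4%, 36.6 to 46.4), against 33.6% of the bases (ratio 1.23, adjusted p = 0.00254, same exact test). The middle held 131 (34.1%), against 32.5% (ratio 1.05, adjusted p = 0.514, same exact test). In 10 stretches of equal length from left to right the peaks numbered 20, 25, 37, 39, 33, 35, 51, 53, 45 and 46. The other X peaks taken ran the same way, with 26.5%, 35.1% and 38.4% from left to right. Of the 13 CGCAGGG carriers, 10 lay in stretches 1 to 5 of the 10, where 154 of the 384 peaks lay.

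The trend was flatter in replicates 1 and 2. The right share was 35.6%, 37.6%, 40.9% and 39.5%, and the left share 29.98%, 30.2%, 26.03% and 28.4%, in replicates 1, 2, 4 and 5 alone, and neither passed the test in replicates 1 and 2. Among the 33 to 51 peaks matched in 3 replicates, with the remaining replicate left out in turn, the left ratio ran from 0.928 to 1.18 and the right ratio from 0.901 to 1.34, with no call. With as many peaks as the optimal list, the left and right ratios were 0.745 and 1.28 (adjusted p = 0.0680 for both, exact binomial test). Leaving out the 20 kb around elt-3 did not end the calls.

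**Figure D5:**
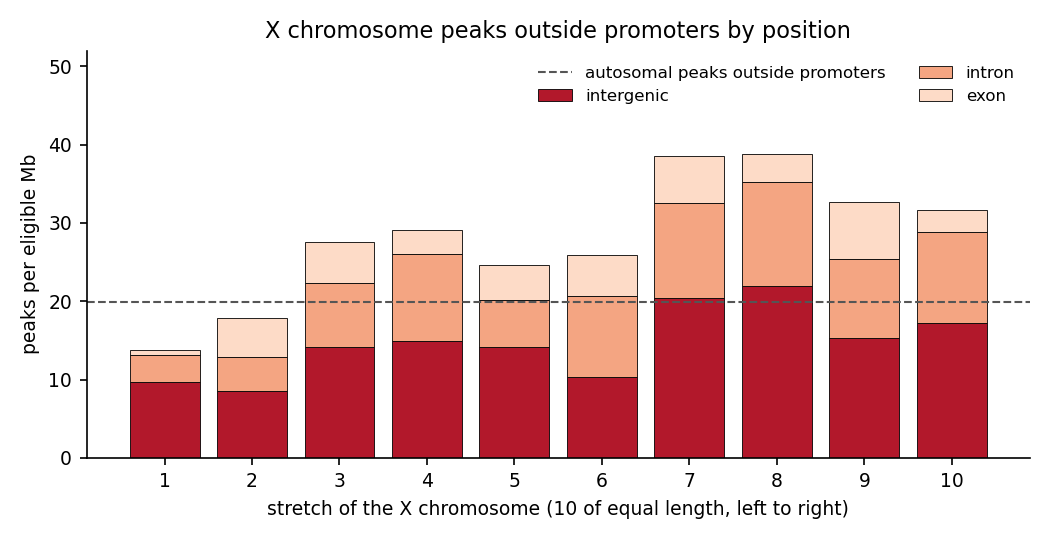
X peaks outside promoters per Mb of sequence where a summit could lie (vertical axis) in 10 stretches of equal length along the chromosome from left to right, split into intergenic, intron and exon summits. The density was 13.8 peaks per Mb in stretch 1 and 38.9 in stretch 8, and the dashed line is the autosomal value of 19.85.

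The 384 peaks lay in or nearest to 280 of the 2731 protein-coding X genes (10.3%). Most of these genes, 217, had 1 peak, and 120 of the peaks had another within 2 kb. ZK470.2 had 7 peaks, of which 5 lay in introns, 1 in an exon and 1 upstream, and its strongest ranked 607, 211, 547 and 346 in replicates 1, 2, 4 and 5. The gene scd-1 had 5, all in introns, and its strongest ranked 3288, 135, 136 and 355. Then 12 genes had 4, and the strongest 3 of these by signal were svh-5, mdl-1 and elt-3. The gene mdl-1 encodes a MAD-like basic helix-loop-helix factor, and its strongest peak, 188 bp past the gene, ranked 18, 195 and 404 in replicates 1, 4 and 5, with no summit within 100 bp in replicate 2. Long genes offer more sequence for a peak, so these counts are not rates per base.

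The gene elt-3 itself, at chrX:13934874-13941216 on the plus strand, had 4 of the 7 peaks within 20 kb of it. The median 40 kb window of X held 0 such peaks and the fullest held 10. The 7 were counted over the gene, 6.343 kb long, and 20 kb on either side, a wider stretch than these windows. The strongest of the 7, in a coding exon, had a pooled rank of 151 and ranked 5804, 504 and 129 in replicates 2, 4 and 5, with no summit within 100 bp in replicate 1. An intron peak with 3 GATA sites had a pooled rank of 236 and ranked 182, 157, 460 and 254 in replicates 1, 2, 4 and 5, so it was the steadier of the pair. The others lay in the same intron, just past elt-3, near meg-2, in ekl-5 and near alg-1. The transgene carries elt-3 sequence, and its part in these peaks was not tested.

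The gene lists are described by how many of their X genes had a peak in or nearest to them, beside 10.3% of all X genes. Of 4 GATA factor genes 1 had a peak, elt-3. Of 30 cuticle collagen genes 5 did, and those with the strongest peaks were dpy-7, col-166, dpy-8 and col-184. The 2 peaks at dpy-7, a cuticle collagen gene, had pooled ranks of 767 and 818, and the one in its exon ranked 540, 18026 and 2348 in replicates 1, 2 and 5, with no summit within 100 bp in replicate 4. Of 9 molting and epidermal matrix genes 2 did, mlt-9 and dlg-1. Of 8 epidermal signalling genes 3 did, sma-9, osm-11 and lin-14. The strongest peak at sma-9, the Schnurri homologue of BMP signalling, lay 2725 bp upstream and ranked 5502, 47, 1604 and 142 in replicates 1, 2, 4 and 5. The peak 49 bp past osm-11, a secreted Notch co-ligand gene, ranked 3466, 309, 313 and 1606.

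Of 3 heterochronic genes, which time larval development, 2 had peaks, daf-12 with 4 and lin-14 with 3, all in introns. The strongest at daf-12, a nuclear hormone receptor gene, ranked 16169, 843 and 1510 in replicates 1, 4 and 5, so the replicates placed it far apart. Of 22 neuronal genes 3 had peaks, unc-2, unc-3 and mec-2, and of 8 muscle genes 1 did, unc-97. None of 9 intestine genes and none of 6 genes of sex determination and dosage compensation had one. Peaks in promoters were outside the rule and were not counted. The 6 genes include xol-1, whose 5′ end was the nearest to a peak 4868 bp away. That peak was given to C34D10.1, which lay 4831 bp from it. The lists are small, and nothing is called particular to a list from these counts.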

How the data were processed

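The deposited files are narrowPeak lists on ce11 for each replicate, for the pooled reads and for the optimal set that passed the irreproducible discovery rate step, per the file headers. The authors' signal value per peak, as deposited, ranked peaks within 1 list, and the deposited −log10 q-value was used for description. The listings name 1 control taken from a separate experiment, not analysed here. The aligner, peak caller and versions were not given in the sources used here. Depth is unknown, so the numbers of peaks and the replicate spread set the precision. The list of replicate 2 was assigned from the listings of its 3 technical libraries, and its values rest on that. The ce10 lists were not used.

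Summits were placed on WBcel235 with Ensembl release 115 protein-coding transcripts. An intron summit lay inside a transcript and in no exon, and an intergenic one in neither. Motifs were searched on both strands wholly within 50 bp of the summit, and overlapping matches counted separately. Exact binomial, Fisher and McNemar tests, all two-sided, came from scipy 1.17.1, with Benjamini and Hochberg adjustment within each family and a threshold of 0.05. For the letters added after the data were seen, the p-value was instead multiplied by 4, the number of motifs. Simulated peak sets were used for the class shares against the bases, the shares along X and the CGCAGGG search with its tests. The other steps were not tried on simulated data. Peaks near each other are not independent, so 1 alternative kept 1 summit per 2 kb. The members, motifs and 9 gene lists were chosen with earlier results of these data known. Named genes are those at the 15 strongest peaks, at the 5 strongest of each class, at the 5 genes with most peaks, within 20 kb of elt-3, up to 4 from each list and, outside that rule, the carriers of CGCAGGG. An intergenic peak was given to the nearest protein-coding gene.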

Additional observations from a re-analysis of the deposited data

Results flagged for a closer look

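Of 23 quantities compared over the 4 replicates, 1 had a replicate far from the other 3 by Dixon's test for 4 values. CGCAGGG was in 0.243% of the flank windows of the X peaks of replicate 4, which is 1 peak, and in none of those of replicates 1, 2 and 5. Chance sets 1 replicate apart in about 1 of 20 such comparisons. Where the other 3 values are equal, as here, the test flags any different value, so that rate does not hold for this quantity.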

How the results depend on the processing

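No paired analysis was possible because the 4 replicates form 1 group. Depth is unknown. The class shares against the bases, the position along X and the GAGAGA difference were not called in replicates 1 and 2 alone. Causes were not tested. The higher CGCAGGG share on X, and at the summit, kept its direction and its side of the threshold under each alternative over all classes together. In percentage points X minus autosomes, in ratios to the bases, or in points summit minus flank, the values of the results given in the report that changed direction or side of the threshold (0.05) were these. With as many peaks as the optimal list, the intron share was -2.60 points, the GATA share -11.5, ACGCAG -7.39, GAGAGA at the summit 6.50, and the left, middle and right ratios 0.745, 0.974 and 1.28. With 6 times as many, the intron and exon ratios were 0.888 and 0.938, the intron, exon and intergenic shares -1.25, -6.37 and 7.62 points, the GATA share 0.175, and GATA between classes -0.617 (intron minus intergenic), -10.05 (exon minus intergenic) and 9.43 (intron minus exon). With 1 summit per 2 kb, ACGCAG was -3.44, and GATA in exons minus intergenic sequence 0.667. With a promoter of 500 bp, ACGCAG was -3.15. Replicate 1 alone gave exon and intergenic ratios of 1.06 and 1.02, intron, exon and intergenic shares of -0.723, -8.70 and 9.43 points, GATA 5.55, GAGAGA -1.33, ACGCAG 0.546, GAGAGA at the summit 1.41, and left and right ratios of 0.887 and 1.06. Replicate 2 alone gave exon and intergenic ratios of 1.16 and 1.02, intron and intergenic shares of -6.10 and 11.2 points, GATA 4.97, GAGAGA -0.282, GAGAGA at the summit 2.48, GATA between classes 13.7 (intron minus intergenic) and 14.6 (intron minus exon), and left, middle and right ratios of 0.893, 0.989 and 1.12. Replicate 4 alone gave GATA 0.344 and ACGCAG -4.10, and replicate 5 alone ACGCAG -3.27, an intron share of -1.16 points and a middle ratio of 0.985. With a motif window of 25 bp, GATA was 0.127 points, and exons minus intergenic sequence 2.13. With 100 bp, GATA was 0.577, ACGCAG -3.94, exons minus intergenic sequence 5.79 and introns minus exons -1.34. TGATAA alone gave -6.99, with ACGCAG called at an unchanged -3.05 since the adjustment changed, and gave exons minus intergenic sequence 4.42 and introns minus exons -0.178. Against genes, the middle ratio was 0.954. Within introns and exons alone, GATA was 5.18 and 4.85 points, GAGAGA -8.18 and -3.34, and CGCAGGG 1.34 and 1.69, which were not called.

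With each replicate left out of the matching in turn, among the 33 to 51 X peaks matched in each of the other 3, the exon ratio ran from 0.305 to 0.353 and the intergenic ratio from 1.53 to 1.60, both called in each case. The pooled list still held the reads of the replicate left out, and the 31 peaks matched in all 4 replicates were in each set. These sets are therefore not independent and cannot show how a result stands without a replicate. The left ratio ran from 0.928 to 1.18, the middle from 0.723 to 0.931 and the right from 0.901 to 1.34. The intron share ran from -9.12 to 3.20 points and the intergenic share from -2.30 to 9.41. GATA at the summit ran from 19.6 to 33.3 points and was called only without replicate 5. GAGAGA at the summit ran from 0 to 9.80 and was called in none. GAGAGA on X minus autosomes ran from -24.1 to -16.7 and was not called without replicate 5. CGCAGGG ran from 17.6 to 27.3 points on X minus autosomes and at summit minus flank, called in each case. The 4 replicates matched 38.8% of the X peaks on average at 100 bp, and that mean moved by less than 1 SD at 50 and 200 bp.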
